A study of Mus musculus with 3 samples.

Results

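The genes described here are 10 genes of the skeletal muscle contractile apparatus: Myh3, Myh8, Ttn, Neb, Des, Tnnt3, Ckm, Ryr1, Cacna1s and Chrna1. They were taken as a list of names out of 21602 protein-coding genes whose accessibility was counted. Accessibility was read by single-nucleus ATAC-seq (snATAC-seq), in which the transposase Tn5 inserts sequencing adapters into open chromatin and each droplet barcode stands for a nucleus. The data comprised 3 libraries of whole wild-type C57BL/6JRj mouse embryos, with 153 nuclei from embryonic day E12.5, 970 from E13.5 and 756 from E15.5. Nuclei of a stage came from a few thick frozen sections of littermates of the embryos used for the spatial maps of the study. All embryos were untreated and each stage had a single library, so stages were compared without a test. The deposited cell table assigned every nucleus to 1 of 12 clusters; clusters 2 and 4, of very shallow nuclei, were left out, and cluster 10 was set against the other 9.

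Skeletal muscle contracts when myosin heads on thick filaments pull on thin filaments within the sarcomere. In the fetus, mononucleated myoblasts fuse into myotubes, which first build sarcomeres with developmental myosins and later replace these with adult forms. Acetylcholine released by the motor nerve depolarises the fibre, the voltage sensor of the surface membrane opens the calcium release channel of the sarcoplasmic reticulum, and calcium bound to troponin frees the thin filament for myosin. Transcription factors of the MyoD family bind the E-box (CANNTG) and MEF2 factors bind an A/T-rich site, and both are known to act at promoters and enhancers of muscle genes.

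The level of a gene is given as the unique fragments that overlap its span, the gene body plus 2000 bp upstream, per 1000000 gene fragments (CPM) of the same cluster and library. Myh3 spans chr11:67078300-67102291 and Myh8 chr11:67277124-67308634, both on the plus strand. Ttn lies at chr2:76703980-76982547, Neb at chr2:52136647-52378474 and Chrna1 at chr2:73563215-73580338, all on the minus strand. Des is at chr1:75360329-75368579 and Cacna1s at chr1:136052750-136119822, both on the plus strand. On chromosome 7 lie Tnnt3 at chr7:142498836-142516009 and Ckm at chr7:19404776-19422841 on the plus strand, and Ryr1 at chr7:29003344-29125179 on the minus strand. Coordinates are those of mm10 (GENCODE vM21, gene body). The counted span of Ckm overlapped Klc3 and that of Cacna1s overlapped Ascl5, so fragments there count for both genes.

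The sequences below are, for 6 of the genes, the bases just before the RefSeq gene start or the stretch in which cluster 10 carried the densest insertions, and they show which E-boxes and MEF2-type sites lie there. Capitals mark every CANNTG and every MEF2-type core, here CTA, any 4 bases and TAG, so the 4 bases need not be A or T. Both read the same on the 2 strands. All are given 5′ to 3′ on the strand of the gene. For Myh3, Ttn, Chrna1 and Des the bases before the RefSeq gene start are shown (GRCm38.p6, the assembly of mm10), at chr11:67078050-67078299, chr2:76982548-76982797, chr2:73580339-73580588 and chr1:75360042-75360291. Predicted RefSeq transcripts of Myh3 and Ttn begin within the last bases shown. For Neb and Ryr1 the shown bases are the richest window of 300 bp (described with its values further on), at chr2:52335147-52335446 and chr7:29123844-29124143.
Myh3: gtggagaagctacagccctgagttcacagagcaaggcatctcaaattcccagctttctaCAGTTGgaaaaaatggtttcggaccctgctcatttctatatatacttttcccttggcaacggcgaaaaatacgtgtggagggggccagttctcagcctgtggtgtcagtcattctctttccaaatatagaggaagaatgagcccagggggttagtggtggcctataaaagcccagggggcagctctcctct
Ttn: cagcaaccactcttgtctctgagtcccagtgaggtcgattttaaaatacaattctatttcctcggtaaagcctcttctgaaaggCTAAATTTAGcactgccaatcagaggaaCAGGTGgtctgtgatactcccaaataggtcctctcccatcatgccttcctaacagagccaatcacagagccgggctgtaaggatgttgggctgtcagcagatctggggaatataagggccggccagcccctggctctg
Chrna1: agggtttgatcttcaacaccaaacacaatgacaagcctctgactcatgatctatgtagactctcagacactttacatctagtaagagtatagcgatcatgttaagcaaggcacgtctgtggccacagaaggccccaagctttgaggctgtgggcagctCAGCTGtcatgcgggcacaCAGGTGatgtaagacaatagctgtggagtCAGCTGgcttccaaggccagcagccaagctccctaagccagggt
Des: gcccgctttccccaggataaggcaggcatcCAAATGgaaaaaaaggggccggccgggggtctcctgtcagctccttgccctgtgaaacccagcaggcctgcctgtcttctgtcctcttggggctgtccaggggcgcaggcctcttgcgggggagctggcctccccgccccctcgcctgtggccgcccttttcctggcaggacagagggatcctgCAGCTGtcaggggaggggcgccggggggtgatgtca
Neb: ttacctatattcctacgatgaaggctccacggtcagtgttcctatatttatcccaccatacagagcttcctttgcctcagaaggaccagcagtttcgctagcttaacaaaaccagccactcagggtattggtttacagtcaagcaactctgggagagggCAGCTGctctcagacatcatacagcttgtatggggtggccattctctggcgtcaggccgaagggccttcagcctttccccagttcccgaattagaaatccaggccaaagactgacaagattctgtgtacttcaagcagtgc
Ryr1: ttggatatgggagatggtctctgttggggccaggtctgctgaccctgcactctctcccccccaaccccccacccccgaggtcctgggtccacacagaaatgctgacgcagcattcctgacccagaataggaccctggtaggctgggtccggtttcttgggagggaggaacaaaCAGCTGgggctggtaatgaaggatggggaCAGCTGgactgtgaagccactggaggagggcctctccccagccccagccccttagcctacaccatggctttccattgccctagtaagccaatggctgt
Chrna1 held 3 E-boxes in these bases, 2 of them CAGCTG, the form of E-box favoured by MyoD family factors. Ttn held 1 E-box and 1 MEF2-type core, and the Des stretch held 2 E-boxes, 1 of them CAGCTG. The Neb stretch held 1 CAGCTG and the Ryr1 stretch 2. RefSeq promoters were found for 8 of the 10 genes. Of these, 7, all but Ryr1, had a CANNTG within the 250 bases before the start, against 66.2% of all 32851 promoters of that length. A CAGCTG was in 4 of the 8, against 4271 of the 32851. A MEF2-type core was in 1 of the 8 and in 3.20% of all promoters. A CArG box, the A/T-rich site of serum response factor, was in 0 of the 8 and in 1.47% of all. A match of letters is a description and not a site of binding.

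In stage order, cluster 10 held 2, 49 and 24 nuclei, with 89353, 3025695 and 1240448 gene fragments and a median of 80653.5, 92857 and 84211.5 fragments per nucleus. None of its barcodes was linked to another barcode by shared fragments, and 1 barcode sequence occurred in both the E13.5 and the E15.5 library. Of 8 skeletal muscle markers, 6 (Myod1, Myf5, Myog, Myf6, Pax7 and Mymk) were at least 1.5-fold above the remaining clusters in both libraries, so the cluster is called skeletal muscle-like. Heart muscle markers passed that fold for 1 of 8 genes, Nppa, and smooth muscle markers for 3 of 6, Acta2, Tagln and the member Des. Of the neural progenitor and epithelium lists 1 of 6 genes each passed it, Nes and Krt8, and no erythroid, neuron, endothelium or mesenchyme marker did. The summed levels of the heart list were 263 CPM at E13.5 and 245 CPM at E15.5 in cluster 10, and those of the smooth muscle list 302 and 251 CPM; their part in the results was not tested. Cluster 11 was shallow, with 35 and 7 nuclei and 467826 and 83847 gene fragments, so 3 fragments there already amount to 6.41 CPM at E13.5 and 35.8 CPM at E15.5.

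The myosin heavy chains were more open in cluster 10 than in any other cluster in both libraries. Myh3, the embryonic myosin heavy chain, stood at 81.0 CPM (95% Poisson interval 71.1 to 91.8) at E13.5 and 91.9 CPM (75.8 to 110) at E15.5 in cluster 10. The other 9 clusters ran from 4.28 to 42.2 CPM with a median of 25.5 CPM at E13.5, and from 0 to 40.5 CPM with a median of 21.3 CPM at E15.5, so cluster 10 lay above every one of them. Over the summed other clusters this was 2.68-fold (2.33 to 3.09) and 3.52-fold (2.85 to 4.31). Myh8, the perinatal myosin heavy chain, stood at 34.4 CPM and 33.9 CPM in cluster 10, against 13.004 and 15.1 CPM in the other clusters together, a ratio of 2.64 (2.12 to 3.28) and 2.24 (1.58 to 3.09). The myosin genes are a tandem family of similar sequence, and how reads that match several of them were placed was not stated. Cluster 3 came next for Myh8 with 26.5 and 24.1 CPM, and at E15.5 that gap was within counting error (ratio 1.40, 0.932 to 2.09). At E12.5, the 2 nuclei of cluster 10 gave 6 fragments of Myh3 and 1 of Myh8, too few to place. Of the 10 genes in that library, Ttn was lower in cluster 10 than in the other clusters beyond counting error, with 3 fragments or 33.6 against 119 CPM (ratio 0.282, 0.0580 to 0.829). Ckm was higher, with 8 fragments (ratio 2.67, 1.13 to 5.39), and the intervals of the other 8 included 1. The counts come from 2 nuclei and the intervals do not cover the spread between nuclei, so Ttn and Ckm are not placed either. Over the 10 genes together, those 2 nuclei gave 63 fragments or 705 CPM (542 to 902), and the other clusters of that library 672 CPM.

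Ttn and Neb encode the giant proteins of the sarcomere. Titin runs from the Z-disc to the M-line as a molecular spring, and nebulin lies along the thin filament. Ttn stood at 221 CPM in cluster 10 at E13.5 and at 439 CPM at E15.5, above 128 and 143 CPM in cluster 3, the next highest. The ratio over the summed other clusters was 2.30 (2.11 to 2.49) at E13.5 and 4.28 (3.89 to 4.70) at E15.5. Neb stood at 165 CPM at E13.5, where cluster 3 was at 162 CPM and did not differ from cluster 10 beyond counting error (ratio 1.02, 0.915 to 1.13). At E15.5 Neb reached 268 CPM in cluster 10, against 149 CPM in cluster 6, the next highest, and 109 CPM in the other clusters together. Neb was thus the highest in cluster 10 in both libraries, but apart from the next cluster only at E15.5.

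Des encodes desmin, the intermediate filament that ties neighbouring Z-discs together in skeletal, heart and smooth muscle. It stood at 60.8 CPM (52.3 to 70.3) and 52.4 CPM (40.4 to 66.8) in cluster 10, and the other clusters ran from 0 to 36.3 CPM at E13.5 and from 0 to 26.6 CPM at E15.5. The ratio over their sum was 3.18 (2.69 to 3.75) and 3.21 (2.43 to 4.19), nearly equal in the libraries. Tnnt3, the fast skeletal form of troponin T, was at 60.5 CPM in cluster 10 at E13.5 and at 77.4 CPM at E15.5. At E13.5 cluster 7, in which 3 of 6 epithelial markers passed the 1.5-fold mark, was at 72.6 CPM and did not differ from cluster 10 beyond counting error (ratio of cluster 10 over it 0.833, 0.650 to 1.07). At E15.5 cluster 10 led, with 44.3 CPM in cluster 3 as the next value.

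Ckm encodes the muscle creatine kinase, which restores ATP in the contracting fibre. It was the member with the smallest difference in the fit over all clusters. Cluster 10 stood at 75.4 and 98.4 CPM and the other clusters together at 47.2 and 47.7 CPM, a ratio of 1.596 (1.38 to 1.83) and 2.06 (1.69 to 2.49). Cluster 11, in which 6 of 7 erythroid markers passed the 1.5-fold mark, stood above it for the Ckm span, at 109 CPM from 51 fragments at E13.5 and 119 CPM from 10 fragments at E15.5, where the gap was within counting error (ratio of cluster 10 over cluster 11 0.825, 0.433 to 1.76). Of these, 30 and 7 fragments lay in the promoter window of the annotated 5′ end, which Klc3 overlaps, at 64.1 and 83.5 CPM against 9.25 and 10.5 CPM in cluster 10. At the starts of the coding transcripts of Ckm, cluster 10 had 27 and 20 fragments and cluster 11 had 0 and 0.

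Ryr1, the calcium release channel, and Cacna1s, the voltage sensor that gates it, were not highest in cluster 10 at E13.5. Ryr1 stood at 234 CPM there, below cluster 9 at 298 CPM, in which all 6 neural progenitor markers passed the 1.5-fold mark (ratio 0.788, 0.708 to 0.876). Cluster 6 was also higher at E13.5, at 263 CPM (246 to 280), which put cluster 10 at rank 3 of 10. At E15.5 Ryr1 reached 430 CPM in cluster 10 against 269 CPM in cluster 9 (ratio 1.595, 1.37 to 1.87). Cacna1s stood at 127 and 128 CPM in cluster 10. Cluster 6, in which 3 of 6 neuron markers passed, was at 139 CPM at E13.5 and 128 CPM at E15.5, and neither value differed from cluster 10 beyond counting error (ratio 0.912, 0.796 to 1.05, and 1.00, 0.812 to 1.23). Over all other clusters together Cacna1s was 1.54-fold (1.38 to 1.71) and 1.81-fold (1.52 to 2.13) higher in cluster 10. Chrna1, the alpha subunit of the muscle acetylcholine receptor, stood at 52.5 and 79.0 CPM in cluster 10, against 27.3 and 35.4 CPM in the rest, with cluster 6 next at 44.9 and 58.2 CPM. At E13.5 that gap was within counting error (ratio of cluster 10 over cluster 6 1.17, 0.932 to 1.47).

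**Figure D1:**
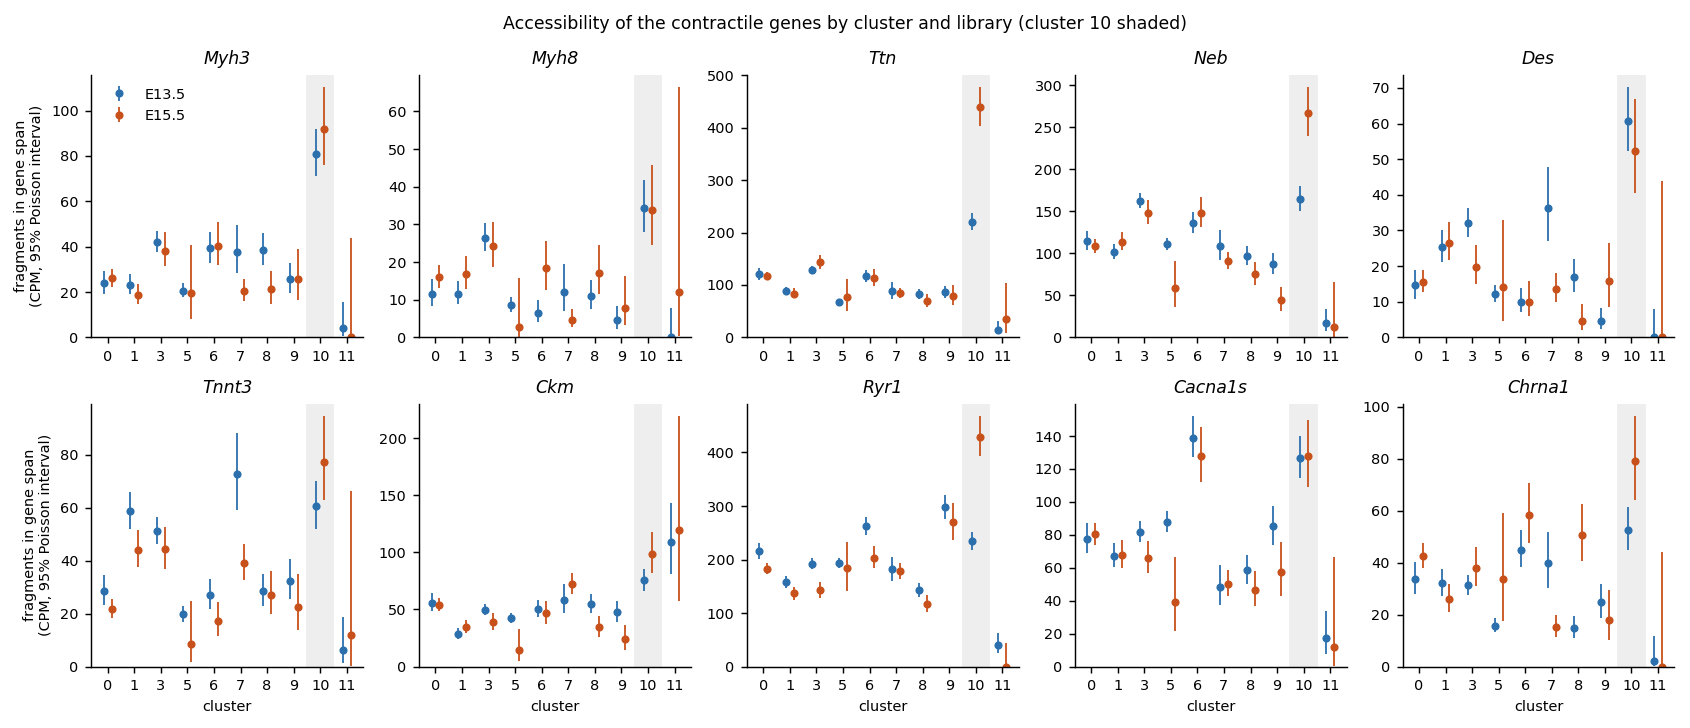
Fragments in the gene span as CPM (vertical axis, from 0) for each of the 10 genes in clusters 0 to 11 without 2 and 4, at E13.5 (blue) and E15.5 (orange), with 95% Poisson intervals that cover counting error only. Cluster 10, shaded, is the highest in both libraries for Myh3, Myh8, Ttn, Neb, Des and Chrna1, while cluster 11 is above it for Ckm and clusters 9 and 6 are above it for Ryr1 at E13.5.

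In each of both libraries, all 10 genes had a ratio of cluster 10 over the summed other clusters whose lower bound was above 1. Of 20804 genes with at least 20 fragments, 7.8% had that in both libraries. A ratio of 2 or more in both was found for 4 of the 10, Myh3, Myh8, Ttn and Des, and for 1.26% of the genes. The median ratio of the 10 was 1.78 at E13.5 and 2.47 at E15.5, against 0.920 and 0.909 over all genes. In the edgeR quasi-likelihood fit of fragments summed by cluster and library, cluster 10 against the mean of the other clusters was called higher for 10 of 10 genes at an adjusted p of 0.05, where 2122 of 19199 genes tested, 11.1%, were called higher and 1.52% lower. The log2 fold changes ran from 0.88 ± 0.21 (SE, adjusted p = 0.00351) for Ckm to 2.92 ± 0.38 (adjusted p = 7.61e-07) for Des, with Ttn at 2.10 ± 0.17 (adjusted p = 8.35e-11) and Myh3 at 2.02 ± 0.22 (adjusted p = 1.86e-08). The clusters were made from the same fragments, so this fit is not independent evidence that the cluster differs. It sets a difference against how clusters varied between both libraries, of different stages, after the shift common to all clusters was taken out. The spread among the other clusters does not enter its error. The mean of the other clusters gives cluster 11 with its few fragments the same weight as the rest; without the clusters of fewer than 20 nuclei in a library, all 10 genes were again called higher, with Des at 1.91 and 7.21% of genes called higher.

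The ratios were mostly larger at promoters than over whole gene spans. Promoters were counted from 1000 bp upstream to 100 bp downstream of the annotated start, and there the median ratio of the 10 genes was 3.59 at E13.5 and 5.59 at E15.5, against 0.822 and 0.787 over all genes. At the 5′ end of the gene, Ttn had 34 and 26 fragments in cluster 10 and 23 and 14 in the rest, 17.6-fold (10.1 to 31.3) and 32.5-fold (16.3 to 67.3) as CPM. Chrna1 had 32 and 17 fragments in cluster 10 and 36 and 20 in the rest, 10.6-fold (6.37 to 17.5) and 14.9-fold (7.31 to 29.9). Myh3 had 23 and 14 against 36 and 8, 7.62-fold (4.31 to 13.2) and 30.6-fold (11.98 to 84.2). Outside cluster 10 the promoters of these 3 genes carried few fragments, at 0.369 to 0.998 CPM. The edgeR fit on these promoters called 7 of the 9 genes that passed its low-count filter higher, where 8% of 13833 genes were. A gene such as Ttn could pass this filter through cluster 10 alone. Without the filter the same 7 genes and Myh8 were called higher, where 1069 of 20981 genes were. Myh8 did not pass the filter, and Neb (log2 fold change 0.25, adjusted p = 0.908) and Ckm (0.63, adjusted p = 0.2995) were not called.

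For Neb and Ckm the annotated 5′ end of the gene did not show the difference from the rest that windows at every coding transcript start showed. At the 5′ end of Ckm, cluster 10 had 28 and 13 fragments (9.25 and 10.5 CPM) and the rest 233 and 168 (6.46 and 7.75 CPM), so this end was open in both. At the 5′ end of Neb, cluster 10 had 5 and 2 fragments and the rest 122 and 41 (3.38 and 1.89 CPM), a ratio of 0.489 (0.156 to 1.17) and 0.853 (0.0999 to 3.28). Of the 122, 76 lay in cluster 5. The RefSeq start of Ckm lies 6318 bp downstream of the 5′ end given by GENCODE, and Neb has 8 annotated coding starts. With windows at every coding transcript start, Neb had 53 and 26 fragments in cluster 10, 1.87-fold (1.38 to 2.51) and 2.99-fold (1.89 to 4.55) over the rest. Ckm had 27 and 20, 4.73-fold (2.91 to 7.49) and 7.44-fold (4.18 to 12.8). On these windows all 10 genes were called higher, against 9.52% of genes, and all 10 had a lower bound above 1 in both libraries, against 2.2% of genes. The fitted log2 fold change was 1.72 for Neb and 3.66 for Ckm. For Ttn the difference was smaller over these windows than at the 5′ end. It had 70 and 45 fragments in cluster 10 and 229 and 152 in the rest, 3.64-fold (2.75 to 4.78) and 5.18-fold (3.63 to 7.26), and the fitted log2 fold change was 2.71 against 5.70 at the 5′ end.

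**Figure D2:**
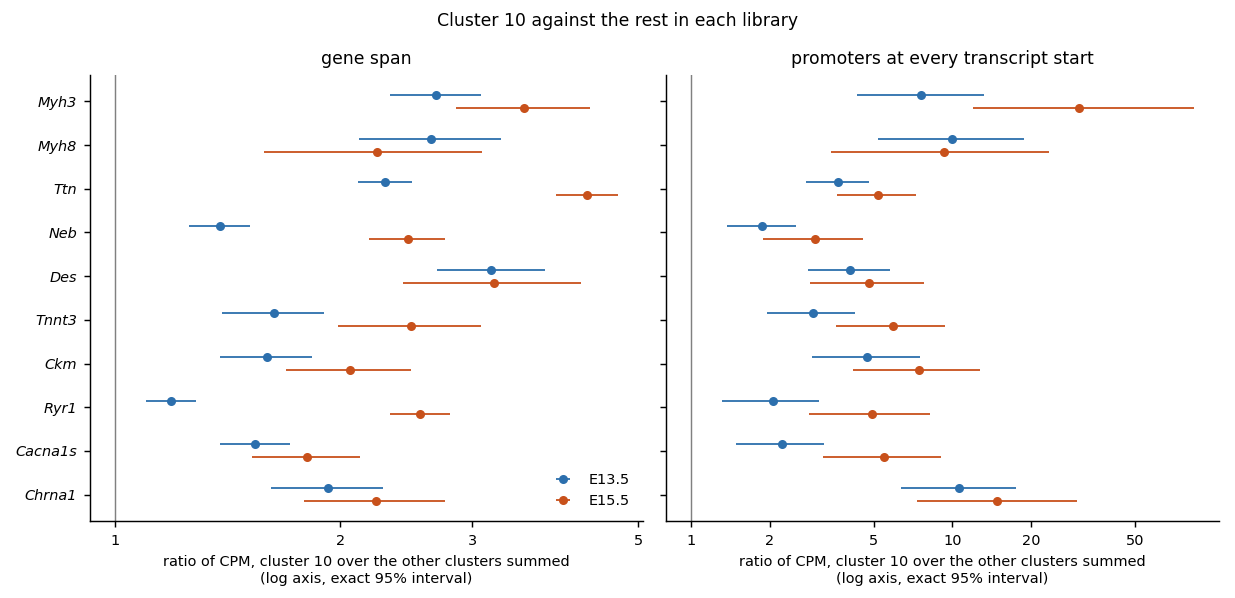
Ratio of CPM in cluster 10 over the other clusters summed (log axis) for the gene span (left) and for promoters at every coding transcript start (right), at E13.5 (blue) and E15.5 (orange), with exact 95% intervals. All intervals lie above 1, and the highest promoter ratios belong to Myh3, Chrna1 and Myh8.

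Around the RefSeq starts of the 8 genes that have one in the table, insertions peaked at the start in cluster 10. Within 250 bp of the start, cluster 10 had 21.2 insertions (18.6 to 23.9) at E13.5 and 35.5 (30.4 to 41.1) at E15.5, and the rest had 4.41 and 4.15. These values are per kb and gene and per 1000000 gene fragments. Between 1000 and 2000 bp away, cluster 10 still had 10.9 and 13.05 and the rest 2.91 and 2.68, so the flanks too had more insertions in cluster 10. A single window of 300 bp in Ryr1, described below, held 75 of the 529 and 50 of the 259 insertions of cluster 10 there. In bins of 50 bp summed over the 8 genes, a unit other than the values per kb, cluster 10 rose again near 925 bp downstream. It reached 9.58 at E13.5 and 15.3 at E15.5 there, against up to 16.9 and 23.4 in such bins at the start.

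**Figure D3:**
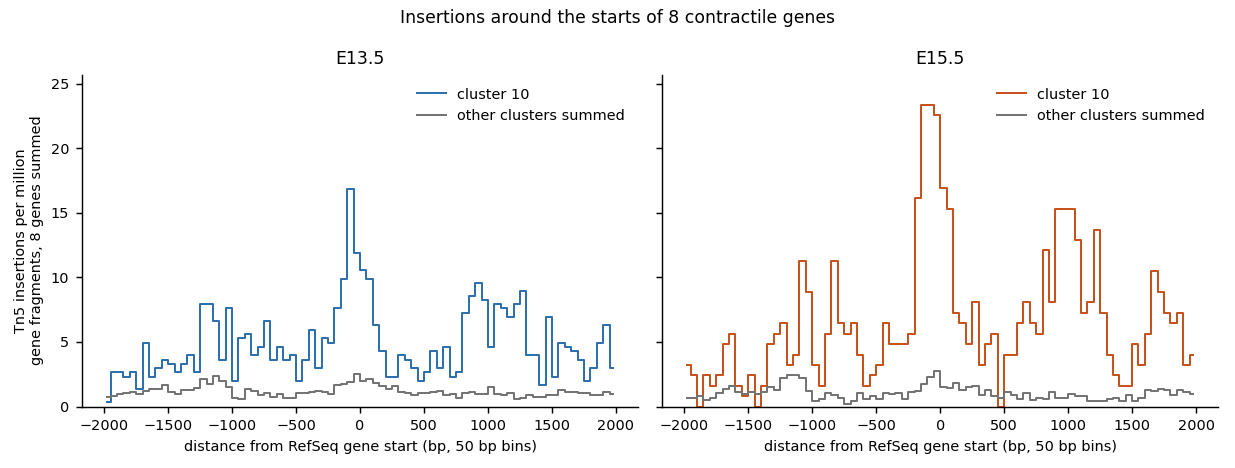
Tn5 insertions per 1000000 gene fragments (vertical axis) by distance from the RefSeq start in bins of 50 bp, summed over 8 genes, in cluster 10 (coloured) and in the other clusters summed (grey), at E13.5 (left) and E15.5 (right). Cluster 10 peaks at the start, at up to 16.9 at E13.5 and 23.4 at E15.5, and the rest stays at or below 2.72. A lower rise of cluster 10 lies near 925 bp downstream.

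The window of 300 bp with the most insertions of cluster 10 was then located in each span. Since it was chosen by these insertions, which favours a high ratio, its ratio is a description. The search was not run over other genes, so the counts of windows have no share over all genes beside them. The ratio was 5 or more in both libraries for 5 of the 10 genes, Ttn, Neb, Tnnt3, Ryr1 and Chrna1. For 6 of the 10 genes its middle lay within 250 bp of a coding transcript start. In Chrna1 the window sat at the start and had 33 and 24 insertions in cluster 10 and 19 and 8 in the rest, 20.7-fold (11.4 to 38.5) and 52.4-fold (22.8 to 135) per gene fragment. In Ttn it also sat at the start, with 32 and 30 insertions against 20 and 11, 19.1-fold (10.6 to 35.2) and 47.7-fold (23.2 to 105). In Neb the window lay in an intron of the longest form, 43178 bp from the annotated 5′ end of the gene and 162 bp upstream of the start of a shorter coding transcript, and held 36 and 14 insertions against 8 and 11, 53.6-fold (24.5 to 134) and 22.3-fold (9.38 to 54.2). In Ryr1 it lay 1022 bp downstream of the nearest coding start, within an intron of the coding transcripts that a non-coding transcript retains, and held 75 and 50 insertions against 47 and 21, 19.02-fold (13.04 to 28.0) and 41.6-fold (24.5 to 73.0). The whole Ryr1 span, which was not chosen by its insertions, had ratios of 1.19 and 2.56. The ratios were lower in the other windows, at 5.12 and 3.72 in Des, 1.90 and 3.54 in Myh3 and 1.90 and 1.77 in Cacna1s, while Myh8 had 14.9 and 4.66, the latter from 4 insertions in cluster 10. In Ckm the richest window lay in a coding exon near the end of the gene and was as open in the rest as in cluster 10 (0.989-fold, 0.704 to 1.36, and 0.906-fold, 0.521 to 1.47). A CAGCTG was found in 7 of the 10 windows and in 13.8% of 2812 windows of the same length tiled over the 10 spans. Of the 5 genes with a ratio of 5 or more, Neb, Ryr1 and Chrna1 had it and Ttn and Tnnt3 did not. Myh3, Des, Ckm and Cacna1s, with lower ratios, also had it, and Myh8 did not. The tiled windows were not matched for distance to a start, and a link of this motif to the ratio was not tested. A CANNTG was in all 10 and in 80.2% of the tiled windows. A MEF2-type core was in 2, Ttn and Des, the latter with a C among its middle bases, and in 4.45%. A CArG box was in 0 and in 1.74%.

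Within cluster 10, accessibility was then compared between E15.5 and E13.5, which asks whether the loci differ with stage within a class of nuclei. Ttn went from 221 to 439 CPM, a ratio of 1.99 (1.77 to 2.23). Ryr1 went from 234 to 430 CPM (1.83, 1.64 to 2.05) and Neb from 165 to 268 CPM (1.62, 1.41 to 1.87). Chrna1 had a ratio of 1.503 (1.16 to 1.95) and Ckm of 1.31 (1.04 to 1.63). The other members had intervals that included 1, with Tnnt3 at 1.28 (0.989 to 1.65), Myh3 at 1.13 (0.901 to 1.42), Cacna1s at 1.01, Myh8 at 0.985 and Des at 0.862 (0.639 to 1.15). An interval above 1 was thus found for 5 of 10 members, against 14.3% of 17244 genes with at least 20 fragments. In the other clusters together the interval was above 1 for 3 members, against 22.9% of genes, and below 1 for 6, against 25% of genes. Those above were Chrna1 at 1.296 (1.18 to 1.43), Myh8 at 1.16 and Ttn at 1.07. Those below ran from 0.840 for Tnnt3 to 0.910 for Neb, with Ryr1 and Des at 0.854, Cacna1s at 0.861 and Myh3 at 0.865, and Ckm was at 1.01. With 1 library per stage, a difference between stages cannot be told apart from a difference between libraries or embryos, and the intervals cover counting error only.

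The higher level at E15.5 was spread along the 3 longest genes. When each span was cut into 10 equal parts, the ratio in cluster 10 was above 1 in all 10 parts of Ttn, from 1.48 to 2.89, and the interval was above 1 in 9. For Ryr1 it ran from 1.33 to 2.70, with 8 intervals above 1, and for Neb from 1.08 to 2.20, with 6. In the rest the parts of Ttn ran from 0.869 to 1.26 and those of Ryr1 from 0.686 to 0.998. At promoters the counts were lower and the members above 1 depended on the window. At the 5′ end, 3 of 9 members with at least 20 fragments had an interval above 1, against 9.6% of genes. They were Ttn at 1.87 (1.07 to 3.20), Tnnt3 at 2.03 (1.06 to 3.84) and Cacna1s at 1.93 (1.00008 to 3.68), the last barely above 1. With windows at every coding start Ttn alone of the 10 did (1.57, 1.05 to 2.31), against 9.7% of genes.

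**Figure D4:**
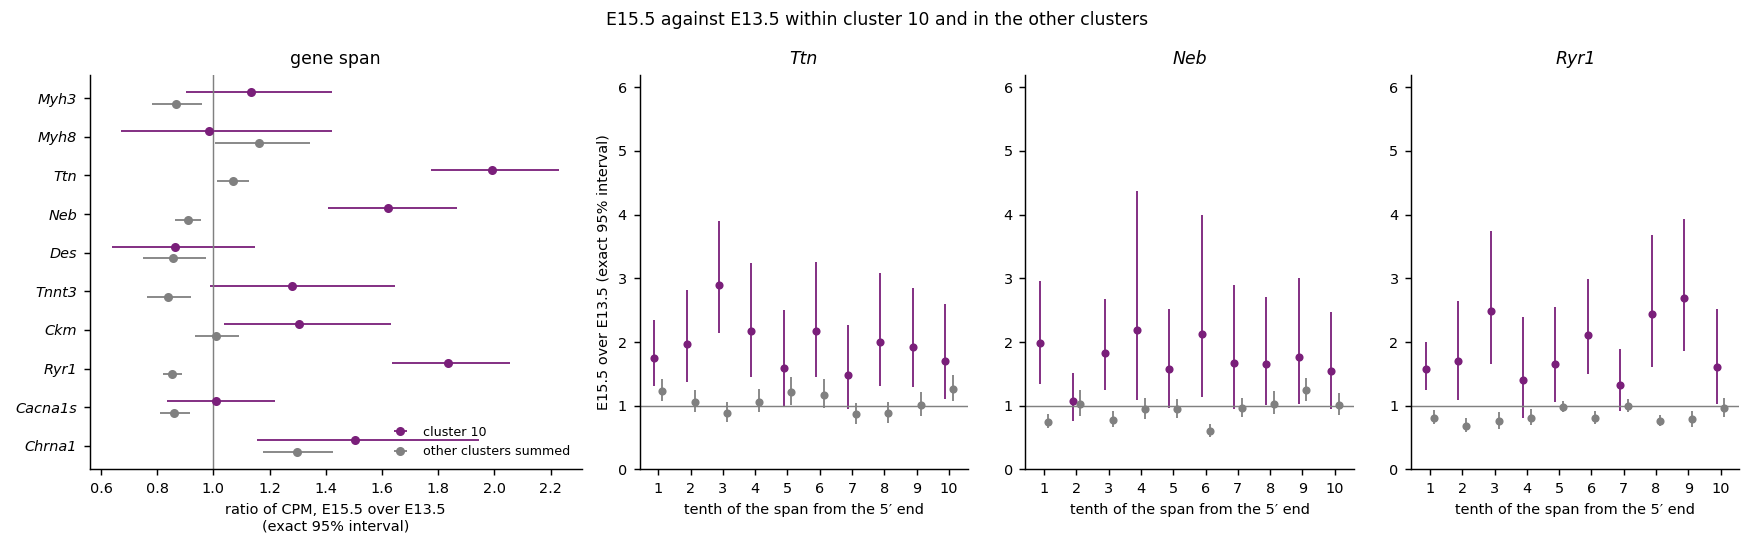
Ratio of CPM at E15.5 over E13.5 for the spans of the 10 genes (left) and for 10 equal parts of the spans of Ttn, Neb and Ryr1 from the 5′ end (right 3 panels), in cluster 10 (purple) and in the other clusters summed (grey), with exact 95% intervals. In cluster 10 all parts of Ttn, Neb and Ryr1 are above 1, while in the rest those of Ryr1 are below 1.

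Nuclei of cluster 10 differed widely in level. Ttn ran from 0 to 885 CPM with a median of 135 CPM over 49 nuclei at E13.5, and from 46.9 to 1181 CPM with a median of 295 CPM over 24 nuclei at E15.5. The medians of Ryr1 were 185 and 317 CPM and those of Neb 106 and 237 CPM. The 3 nuclei with the most fragments held 40.9% of the Ttn fragments and 53.1% of the Chrna1 fragments at E15.5. For Chrna1 the medians, 45.0 and 50.8 CPM, were closer than the summed levels. For Des the median was higher at E15.5, 47.3 against 26.2 CPM, although the summed level was lower.

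**Figure D5:**
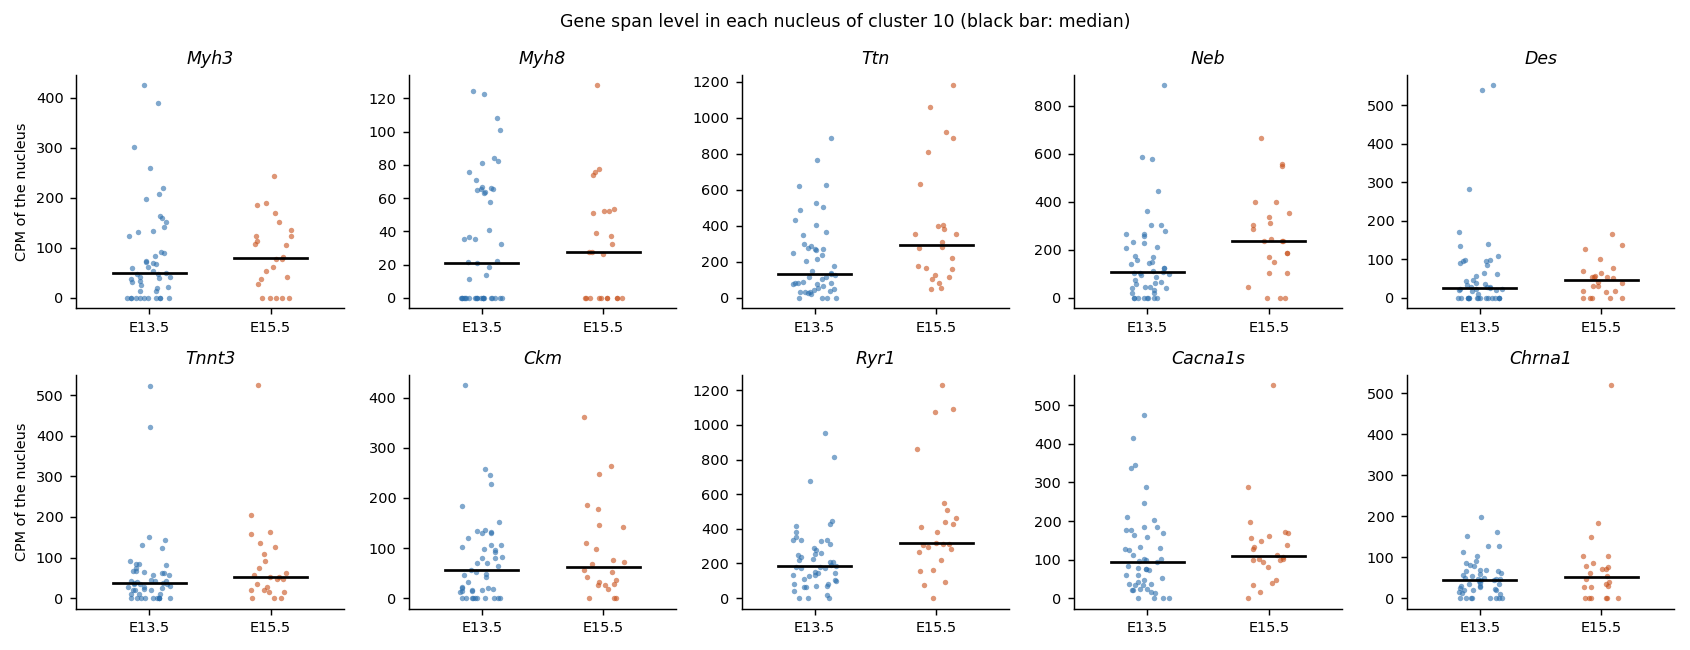
Level of each gene span in single nuclei of cluster 10 as CPM of the nucleus (vertical axis), at E13.5 (49 points) and E15.5 (24 points), with black bars at the medians. Single nuclei spread from 0 to 1228 CPM, and the medians of Ttn are 135 and 295 CPM.

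Many nuclei of cluster 10 had fragments at the promoters of several members. Whether members were open together more often than their single shares give was not tested. At least 3 of the 10 genes had a fragment at a coding start in 27 of 49 nuclei of cluster 10 at E13.5 (55.1%, exact 95% interval 40.2 to 69.3) and in 19 of 24 at E15.5 (79.2%, 57.8 to 92.9). In the other clusters this held for 79 of 760 nuclei (10.4%) and 38 of 534 (7.12%). In cluster 5 at E13.5, in which all 7 erythroid markers passed the 1.5-fold mark and the median depth was 62521 fragments, a fragment at Myh3 was seen in 1.81% of nuclei, at Chrna1 in 3.61% and at Ttn in 12.05%, against 28.6%, 30.6% and 49.0% in cluster 10 at 92857 fragments. For Neb, at 27.7% (21.1 to 35.2) in cluster 5 and 38.8% (25.2 to 53.8) in cluster 10, and for Tnnt3, at 10.2% (6.08 to 15.9) and 22.4% (11.8 to 36.6), the intervals of the 2 clusters overlapped. Cluster 3 was of like depth to cluster 10, with a median of 104625 fragments at E13.5 and 99142.5 at E15.5, and at least 3 genes were open in 21.8% (15.1 to 29.8) and 20% (10.03 to 33.7) of its nuclei. At E13.5 a fragment was seen there at Myh3 in 5.26% of nuclei, at Chrna1 in 6.02% and at Ttn in 31.6%. Neb was seen there in 28.6% and Tnnt3 in 21.8%. For Myh8, Ttn, Neb, Tnnt3, Ryr1 and Cacna1s the intervals of clusters 3 and 10 overlapped. After each nucleus was thinned to 10000 fragments, at least 1 gene was still open in 42.9% and 50.0% of nuclei of cluster 10. No gene was open in 28 of 49 and 12 of 24 of them, against 592 of 737 and 442 of 518 in the rest. At least 3 were open in only 1 of 49 and 3 of 24, against 0 of 737, which allows a share of up to 0.407%, and 1 of 518 in the rest.

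Other genes of the contractile apparatus were examined as lists. Their log2 fold changes, which also set the genes named, come from the fit that weighs shallow cluster 11 like the other clusters. They can exceed the difference in summed levels. Acta1, for example, stood at 30.4 CPM at E13.5 and 59.7 CPM at E15.5 in cluster 10, against 9.04 and 13.6 CPM in the other clusters summed. Of 39 other sarcomere genes, 30 were called higher in cluster 10 in the edgeR fit over gene spans and 0 lower, where 11.1% of all genes tested were called higher and 1.52% lower, with a median log2 fold change of 1.70 against 0.08 over all genes. The largest were Actc1 (4.69), the cardiac actin that fetal skeletal muscle also uses, Acta1 (2.64), the skeletal actin, Mybph (2.58), a myosin-binding protein, and Myl1 (2.48), a fast myosin light chain. Of 16 genes of calcium handling, 11 were called higher, against the same 11.1%, and 0 lower (median 0.99), led by Sln (2.25), which restrains the calcium pump, Atp2a1 (2.10), the fast-fibre calcium pump, Cacng1 (1.95), a subunit of the voltage sensor complex, and Jsrp1 (1.77). Atp2a2, the pump of heart and slow muscle, was at 0.07 (adjusted p = 0.887).

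Of 10 genes of the neuromuscular junction, 7 were called higher, against 11.1% of all genes, and 0 lower (median 1.59). Chrnd (2.95) and Chrng (2.63), the delta and the fetal gamma subunit of the acetylcholine receptor, led them, followed by Rapsn (2.19), which clusters the receptor, and Dok7 (1.80), an activator of the muscle-specific kinase. Chrne, the adult subunit that takes the place of Chrng, was at 0.31 (adjusted p = 0.653). Among 10 genes of muscle energy supply 4 were called higher, against the same 11.1%, and 0 lower (median 0.85): Pgam2 (2.08), Ampd1 (1.33), Mb (1.20) and Fabp3 (0.90). At the 5′ end promoters that passed the low-count filter, 22 of 27 sarcomere genes and 10 of 14 of calcium handling were called higher. So were 7 of 8 of the junction and 4 of 6 of energy supply, against 8% of all 13833 promoters tested. A promoter could pass this filter through cluster 10 alone, which favours a call of higher. These lists were not counted without the filter.

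The genes with the profile most like the mean of the 10 were Gm5105 (Pearson r 0.971), 1110002E22Rik (0.962), Sorcs2 (0.961), Thpo (0.956) and Insrr (0.953), over log2(CPM + 1) in 20 sums of cluster and library and among 19333 genes of at least 100 fragments, and Slc2a10, Ppfia4, Adamts14 and Bves were also among the 10 highest. These sums share their libraries, and the low sums of cluster 11 weigh on every r. Among the members, r with the mean of the other 9 ran from 0.593 for Myh8 to 0.961 for Neb, apart from Ckm at -0.255, the gene that was highest in cluster 11. Without cluster 11, over 18 sums, r of Ckm was 0.660 and the lowest was 0.396 for Ryr1.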

How the data were processed

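Per the file headers, the authors mapped the reads with CellRanger ATAC 2.0.0 to mm10, which shifts fragment ends to the Tn5 insertion and collapses duplicates; the notes of the submitters also name Seurat 4.1.0 and Signac 1.6.0. The deposited fragment lists give the start and end of each unique fragment and a count of read pairs, and each unique fragment was counted once here. The deposited cell table gives for 1879 nuclei a count of fragments and a cluster number, a score used only as a label, whose clustering settings are not given in the sources used here; 20 of its columns were not used. The libraries held 9402554, 87687839 and 53120243 unique fragments in stage order, and 91.5%, 76.4% and 74.4% of those on standard chromosomes lay in nuclei of the table.

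Genes came from GENCODE vM21, whose coordinates are those of mm10. Of 21938 protein-coding genes on standard chromosomes, 79 of the Pcdh and Ugt clusters, as in the methods of the study, 231 with spans over 500000 bp and 26 repeats of a symbol were left out. Strand cannot be told from ATAC-seq and overlapping genes share fragments. Doublets were not removed. Fragments were summed by cluster and library for clusters with at least 5 nuclei in E13.5 and E15.5 (20 sums) and tested with edgeR 4.0.16 in R 4.3.3 (TMM, filterByExpr, quasi-likelihood, library as a block, Benjamini-Hochberg over all genes tested), with DESeq2 1.42.0 as an alternative. The standard error is the log2 fold change divided by the square root of F. Scripts were tested on simulated data. Poisson, Clopper-Pearson and ratio intervals are exact at 95% and cover counting error only; for a count of 0 the limit of 3 counts is used. Nuclei were never treated as replicates. Sequences came from RefSeq (GRCm38.p6), and all 8 promoters equalled the genome.

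The members, the gene lists and the tests were chosen with earlier results of these data known. Named genes were the 10 members, the 4 largest called changes in each direction of each other list, and the 10 genes with the highest Pearson r with the mean profile of the members, of which 1 is not reported here; Atp2a2 and Chrne were named after their values were seen. Alternatives changed the scaling, the tool, the filter, the libraries, the clusters, the barcodes, the depth and the windows. Columns of comparisons by the authors were not among the files used.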

Additional observations from a re-analysis of the deposited data

Results flagged for a closer look

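Over the gene span, Neb and Ryr1 moved in opposite directions between the stages in cluster 10 and in the other clusters summed. The mix of those clusters differed between the stages, with 166 and 10 nuclei in cluster 5. For Ryr1 the ratio of E15.5 over E13.5 was 1.83 in cluster 10 and 0.854 in the other clusters, and for Neb 1.62 and 0.910, each with an interval that excludes 1. With 1 library per stage the difference between these ratios was not tested.

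Fragments of the 10 genes also lay in nuclei that were left out of the comparisons. In stage order, cluster 2 held 68, 704 and 329, which is 562, 894 and 698 CPM for the 10 genes together, and cluster 4 held 10, 13 and 36. At E13.5 the level of cluster 2 lay between that of cluster 10, 1111 CPM, and that of the other clusters, 669 CPM. Barcodes outside the cell table held, in stage order, 293, 8266 and 5534 fragments of these genes. That was 8.53%, 22.7% and 25.7% of all their fragments, where 8.47%, 23.6% and 25.6% of all fragments lay outside the table.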

How the results depend on the processing

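No paired analysis was possible because no replicate numbers link samples, each stage having a single library; the fit compared clusters within libraries, with library as a block. Over gene spans all 10 members were called higher in cluster 10 under each of 8 other fits, and all 10 had a ratio above 1 without either library (lowest and highest count 10 and 10). Fewer or more genes were called in all: with E12.5 added, 107 genes were lower; without clusters of fewer than 20 nuclei in a library, 1385 were higher and 495 lower, against 2122 and 291. At promoters 81 were lower with DESeq2 size factors and 68 with DESeq2, against 124. Neb had a log2 fold change of -0.11 with 1000 bp on either side of the start, where the cause was not tested, and its promoter ratio of E15.5 over E13.5 was 0.976, from 5 and 2 fragments. The ratio of cluster 10 over the rest for the 10 genes summed, 1.66 at E13.5 and 2.73 at E15.5, was 1.74 at E13.5 as a mean over nuclei, and 1.78 and 3.07 with the other clusters weighted equally. Nuclei with 3 or more members open fell with thinning from 27 and 19 to 1 and 3 in cluster 10, and from 79 and 38 to 0 and 1 in the rest. Depth limits the promoter counts: Myh8 had 20 and 4 fragments in cluster 10. Without filter on low counts Myh8 was called at its promoter (log2 fold change 4.12, adjusted p = 5.73e-06). The median over nuclei and the profiles without cluster 11 were alternatives chosen after seeing the data.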

Other observations

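When cluster 11 was left out, 8 of the 10 genes with the profile most like the mean of the contractile genes were other genes than before, and 2 were shared, Gm5105 and Ppfia4. The leading gene was then Klhl40 (Pearson r 0.916 over 18 sums), which encodes a sarcomere-associated protein. Actc1 (0.893), the cardiac actin, Myod1 (0.891), the myogenic regulator, and Chrng (0.882), the fetal acetylcholine receptor subunit, were also among the 10, with log2 fold changes in cluster 10 of 4.69, 3.79 and 2.63. The others were Ppa2, Cemip, Ephx4 and Gpr1.

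The spans of adult fast myosins were also more open in cluster 10, while their 5′ end promoters were not among those tested. Myh1, Myh2 and Myh4, the adult fast myosins, had log2 fold changes of 2.25, 2.24 and 1.89 in cluster 10 and were called higher, beside Myh3 at 2.02 and Myh8 at 1.93. The fit weighs shallow cluster 11 like the other clusters, and the summed levels differed less. Their levels were low, with Myh1 at 22.8 and 20.96 CPM in cluster 10 and 10.3 and 9.91 CPM in the other clusters. Myh4 was at 19.5 and 13.7 CPM in cluster 10, the latter from 17 fragments, and at 10.6 and 8.90 CPM in the other clusters. The placing of reads that match several of these tandem genes was not stated. Accessibility over a gene span does not give its expression.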
